A study of Mus musculus with 4 samples.

Results

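Ketone body metabolism was examined through 5 genes, Bdh1, Oxct1, Acat1, Bdh2 and Slc16a1, in hearts of mice after transverse aortic constriction (TAC) or sham surgery. TAC narrows the aorta and loads the left ventricle with pressure. The members were the array probes whose transcript identifier is a RefSeq or Ensembl transcript of these genes, which gave 7 probes of 29359 that could be matched to a gene, and 5 genes of 21659. Bdh1 had 3 probes and each of the other genes had 1. The data are 4 single-color arrays of total heart RNA, 1 for each condition, of male C57BL/6J mice: sham at 2 weeks, TAC at 2 weeks, sham at 8 weeks and TAC at 8 weeks after surgery. By the labels the mice were 10 weeks old at the earlier and 16 weeks old at the later time in both conditions, and the study's methods give an older age at surgery than these ages imply. No allele or drug distinguished the groups, and each array carried RNA pooled from several mice. The spread between mice was therefore not measured, no p-value was computed, and every ratio below compares a pair of pools.

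Ketone bodies, which are acetoacetate and beta-hydroxybutyrate, are made in the liver from fatty acids during fasting and are burned by the heart, brain and muscle. Monocarboxylate transporters carry them into the cell. In the mitochondria, beta-hydroxybutyrate dehydrogenase (Bdh1) oxidizes beta-hydroxybutyrate to acetoacetate, succinyl-CoA:3-oxoacid CoA transferase (Oxct1) activates acetoacetate at the expense of succinyl-CoA, and acetyl-CoA acetyltransferase (Acat1) splits the product into acetyl-CoA for the citric acid cycle. Bdh2 is a cytosolic dehydrogenase of the short-chain family that bears the same name, and Slc16a1 (MCT1) is a transporter of lactate, pyruvate and ketone bodies. The pressure-loaded and failing heart is known for lower use of fatty acids, and ketone oxidation has been studied there as an alternative fuel.

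Bdh1 (gene identifier 71911) lies on the plus strand of GRCm38.p6 at chr16:31422297-31458901. RefSeq gives it 2 transcripts of 7 exons each, which share 6 exons and differ in the first. Of the 3 Bdh1 probes, 1 is named by the transcript with the upstream first exon and 2 by the transcript with the downstream first exon. Because the probe sequences were not used here, it cannot be said which exon each probe lies in, and the probes may all read shared exons. The bases upstream of both starts, and of the start of Bdh2, which was the other member past 1.5-fold at both times, are shown because the counts below rest on these members. Each run ends at the base before the annotated start (RefSeq, GRCm38.p6, plus strand, chr16:31422047-31422296, chr16:31428503-31428752 and chr3:135280971-135281220), and capitals mark matches to the motifs named after them.
Bdh1 upstream first exon: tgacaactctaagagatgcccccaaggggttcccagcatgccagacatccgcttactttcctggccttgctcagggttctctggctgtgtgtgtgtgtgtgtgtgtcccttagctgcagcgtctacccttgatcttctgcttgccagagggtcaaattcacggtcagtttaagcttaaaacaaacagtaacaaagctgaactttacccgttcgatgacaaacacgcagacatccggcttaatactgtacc
Bdh1 downstream first exon: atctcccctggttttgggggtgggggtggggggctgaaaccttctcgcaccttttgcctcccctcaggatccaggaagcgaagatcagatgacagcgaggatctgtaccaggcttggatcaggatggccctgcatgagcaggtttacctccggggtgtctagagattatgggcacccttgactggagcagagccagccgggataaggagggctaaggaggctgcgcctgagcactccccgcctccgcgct
Bdh2: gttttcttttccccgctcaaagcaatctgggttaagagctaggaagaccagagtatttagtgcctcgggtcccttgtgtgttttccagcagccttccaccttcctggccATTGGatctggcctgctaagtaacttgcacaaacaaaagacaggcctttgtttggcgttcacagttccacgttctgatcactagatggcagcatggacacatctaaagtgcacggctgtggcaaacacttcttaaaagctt
The motifs searched on both strands in these 250 bases were the nuclear receptor half-site AGGTCA, its longer form AAGGTCA, which estrogen-related receptors bind and which contains the former, the E-box CACGTG, the CCAAT box CCAAT and the GC box GGGCGG. Neither Bdh1 window held any of these letters, and Bdh2 held 1 CCAAT box, which reads ATTGG on the strand shown. Among 32851 mouse promoter windows of the same length, 14.0% held AGGTCA, 4.08% AAGGTCA, 6.02% CACGTG, 33.8% CCAAT and 32.7% GGGCGG. G and C made up 49.6% and 60.8% of the Bdh1 windows and 48% of the Bdh2 window.

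Signals were scaled to the array's 75th percentile over 55681 probes other than controls, so that a level of 1 equals that percentile on its own array. A probe counted as measured when the scanner software marked it as well above background, and a ratio past 1.5-fold is called higher or lower. The error given with a log2 ratio is the SD of a ratio from single spots, taken from probes of like brightness that were printed in 10 spots, so it covers the spot and not the mice. Between 54.7% and 58.5% of probes were well above background on an array, no spot was saturated, and the 75th percentile ranged from 206 to 248 intensity units. All 7 member probes were well above background on all 4 arrays, and each was printed as 1 spot. Levels of different probes are not comparable, since probes differ in how well they bind.

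Bdh1 showed the largest differences of the members. On its brightest probe the level was 17.0 in sham at 2 weeks, 29.4 in TAC at 2 weeks, 30.3 in sham at 8 weeks and 68.9 in TAC at 8 weeks. The TAC pool was above the sham pool at each time, but the TAC pool at 2 weeks and the sham pool at 8 weeks were nearly equal. Log2 TAC over sham was 0.80 ± 0.05 (spot SD, 1 array per group) at 2 weeks and 1.19 ± 0.05 at 8 weeks, or 1.74-fold and 2.28-fold. The second probe read 8.66, 14.8, 15.7 and 35.7 in the same order, with log2 TAC over sham of 0.77 and 1.18. The third probe, which was dimmer, read 0.718, 1.33, 1.36 and 3.31, with log2 ratios of 0.89 and 1.28. All 3 probes put the 4 pools in the same order, and their mean log2 TAC over sham was 0.82 ± 0.06 (SD between probes, n = 3 probes) at 2 weeks and 1.22 ± 0.05 at 8 weeks. The probes are separate readings of the same labelled RNA and not replicates of the condition.

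The sham pools themselves differed in Bdh1. Sham at 8 weeks was above sham at 2 weeks by a log2 ratio of 0.84 ± 0.05 (spot SD, 1 array per group) on the brightest probe, 0.86 on the second and 0.93 on the third, a mean of 0.87 ± 0.05 (SD, n = 3 probes) or 1.83-fold. This difference without TAC was as large as the TAC ratio at 2 weeks, and TAC at 2 weeks over sham at 8 weeks was -0.05 ± 0.03 (SD, n = 3 probes) on the log2 scale. From sham at 2 weeks to TAC at 8 weeks, the lowest and the highest pool, the difference was 4.07-fold on the brightest probe. The sham pools differ in age and in time after surgery, and these cannot be told apart from any other difference between the pools. When TAC was set against the mean of both sham arrays, a comparison added after the difference between them was seen, the Bdh1 log2 ratio was 0.38 at 2 weeks, within 1.5-fold, and 1.61 at 8 weeks. The TAC ratio was larger at 8 than at 2 weeks by 0.39 to 0.41 on the 3 probes, a difference that was not tested.

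**Figure D1:**
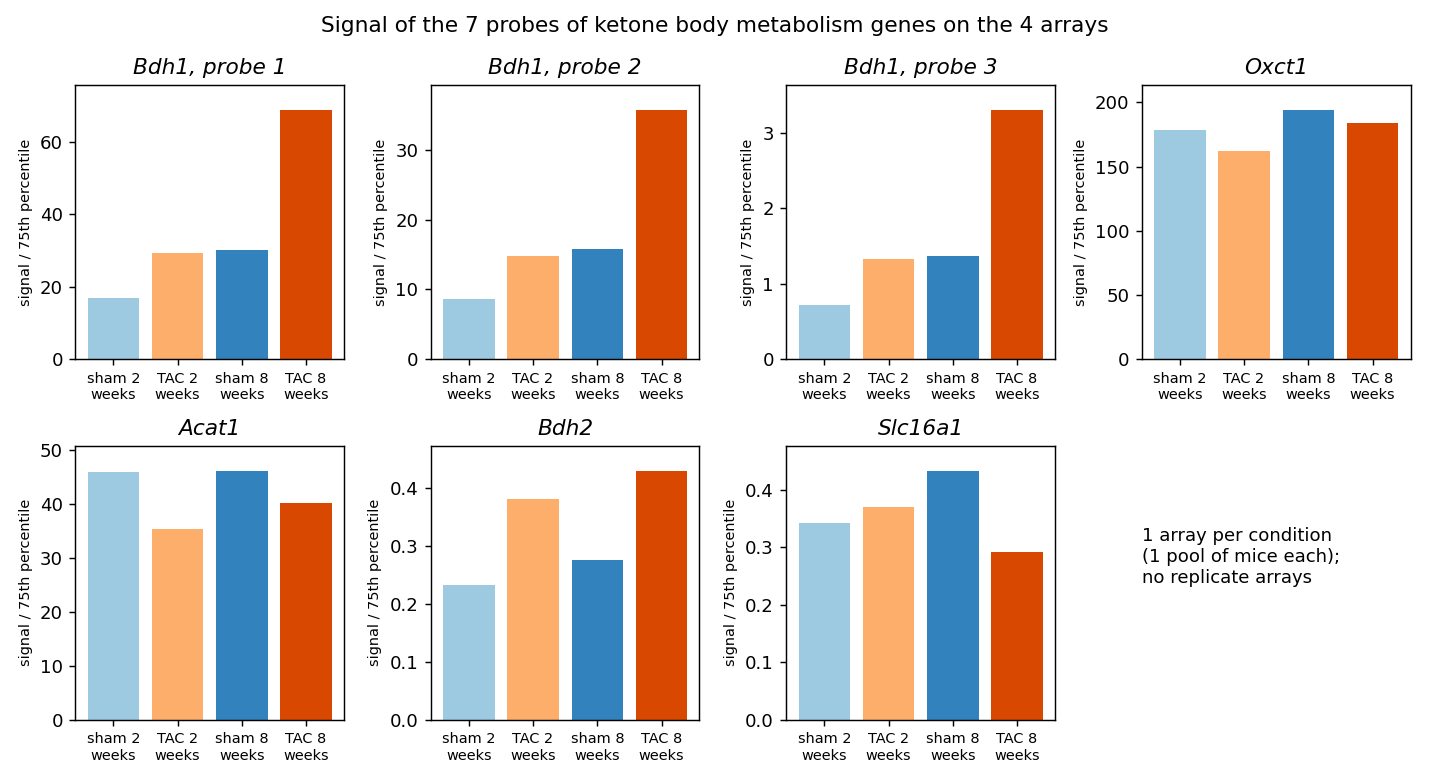
Bars give the signal of each of the 7 member probes over the 75th percentile of its array, from 0 on a linear axis that is set for each probe, on the 4 arrays (light blue and blue, sham at 2 and 8 weeks; light and dark orange, TAC at 2 and 8 weeks; 1 pool each, no error bar). The 3 Bdh1 probes share 1 order, with TAC at 8 weeks highest and TAC at 2 weeks close to sham at 8 weeks.

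The other enzymes of mitochondrial ketone oxidation stayed within 1.5-fold. Oxct1, the step specific to ketone use, lies at chr15:4026428-4155344 on the plus strand with 17 exons. Its level was 178 in sham and 162 in TAC at 2 weeks, and 194 in sham and 184 in TAC at 8 weeks. The 4 pools lay close together, and log2 TAC over sham was -0.14 ± 0.05 (spot SD, 1 array per group) at 2 weeks and -0.08 ± 0.05 at 8 weeks. At 8 weeks its sign turned with the scaling, to 0.01 when arrays were scaled to their medians or by quantiles and to 0.09 with no scaling. Acat1, the last step, lies at chr9:53580522-53610350 on the minus strand with 12 exons. Its level was 46.0 in sham and 35.3 in TAC at 2 weeks, and 46.2 in sham and 40.2 in TAC at 8 weeks. Both TAC pools were below both sham pools, which were equal within the spot error (log2 0.01 ± 0.05). Log2 TAC over sham of Acat1 was -0.38 ± 0.05 (spot SD, 1 array per group) at 2 weeks and -0.20 ± 0.05 at 8 weeks.

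Bdh2 (chr3:135281221-135304426, plus strand) was dim. Its level was 0.232 in sham and 0.381 in TAC at 2 weeks, and 0.275 in sham and 0.430 in TAC at 8 weeks. Both TAC pools were above both sham pools. Log2 TAC over sham was 0.72 ± 0.14 (spot SD, 1 array per group) at 2 weeks and 0.64 ± 0.13 at 8 weeks, or 1.64-fold and 1.56-fold, and the sham pools differed by 0.25 ± 0.15. With the normexp background correction, which adds an offset and so draws dim probes together, these TAC ratios were 0.33 and 0.37, within 1.5-fold.

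Slc16a1 (chr3:104638664-104658462, plus strand) was also dim. Its level was 0.342 in sham and 0.370 in TAC at 2 weeks, and 0.433 in sham and 0.292 in TAC at 8 weeks. The sham pool at 8 weeks was highest and the TAC pool at 8 weeks lowest. Log2 TAC over sham was 0.11 ± 0.14 (spot SD, 1 array per group) at 2 weeks and -0.57 ± 0.13 at 8 weeks. The latter is a level 1.48-fold lower, just inside the 1.5-fold limit, and the sham pools differed by 0.34 ± 0.15. In the deposited table, which scales the arrays by other constants, Slc16a1 was barely past the limit at 8 weeks, at -0.59. It was at -0.48 with arrays scaled to their medians and at -0.53 by quantiles. Without scaling it was at -0.40, and with normexp at -0.41.

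**Figure D2:**
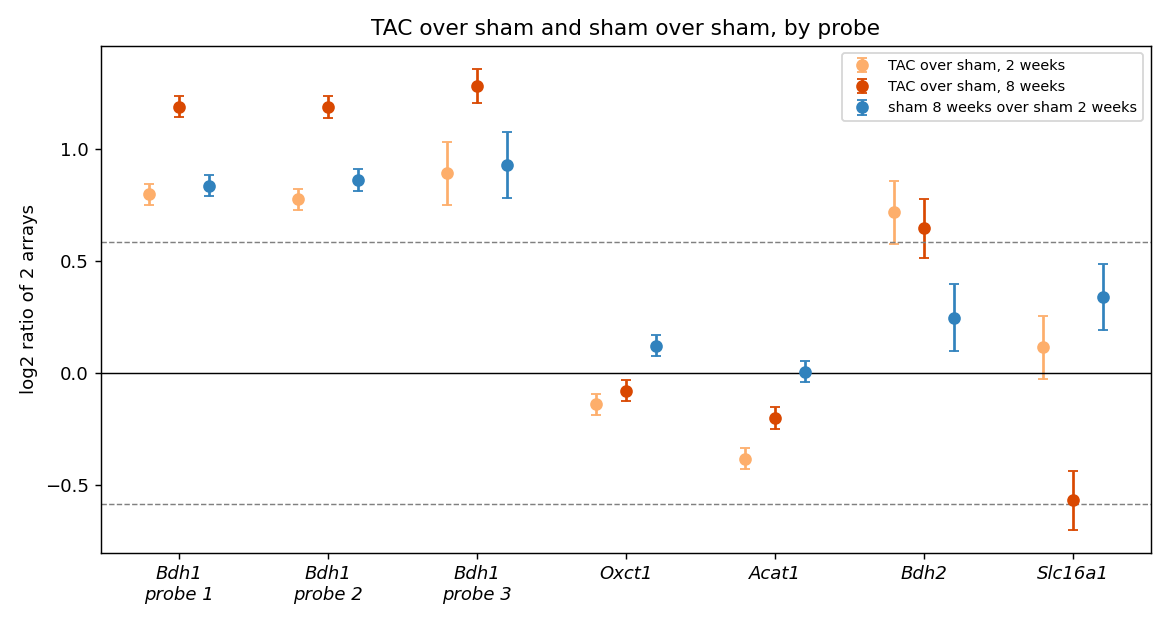
Points give the log2 ratio of a pair of arrays for each member probe, as TAC over sham at 2 weeks (light orange) and at 8 weeks (dark orange) and sham at 8 weeks over sham at 2 weeks (blue). Bars are ± 1 SD of a ratio from single spots and dashed lines mark 1.5-fold. For Bdh1 the blue points lie beside the light orange ones, whereas for Bdh2 they lie below both TAC ratios.

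Counted by probe, 4 of the 7 member probes were higher in TAC at 2 weeks and 0 lower, and the same counts held at 8 weeks. These were the 3 probes of Bdh1 and the probe of Bdh2, so that they stand for 2 genes of 5. Over all probes measured on both arrays, 3.63% were past 1.5-fold higher in TAC and 3.13% lower at 2 weeks, and 4.49% higher and 4.85% lower at 8 weeks. The balance at 8 weeks depended on the scaling, with 1366 probes higher and 1474 lower here, 1839 and 1016 after scaling to the median and 2444 and 738 without scaling. Sham at 8 weeks over sham at 2 weeks put 3 of the 7 probes past 1.5-fold higher, all of Bdh1, and 0 lower, against 1.74% higher and 1.81% lower of all probes. The median log2 TAC over sham of the 5 genes was 0.11 at 2 weeks and -0.08 at 8 weeks, beside -0.02 and -0.04 over all measured probes. The counts thus rest on Bdh1 and Bdh2.

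A wider list held 32 genes with a probe: the 5 members and other genes of ketone enzymes, cytosolic acetoacetate use, transport, sensing and regulation. Of these, 21 were measured in every comparison and 11 were not well above background on any array. The latter were Oxct2a and Oxct2b, testis copies of the transferase, Hmgcll1 and Acat3, the sodium-coupled transporters Slc5a8 and Slc5a12, the receptors Hcar1, Hcar2 and Ffar2, the hepatic hormone Fgf21 and the liver factor Foxa2. Besides Bdh1 and Bdh2, and by the brightest probe of each gene, 0 of the list were higher in TAC at 2 weeks, 2 were higher at 8 weeks, and 1 was lower at 2 weeks and 0 at 8 weeks. Of all measured probes, 3.63% were higher and 3.13% lower at 2 weeks, and 4.49% higher and 4.85% lower at 8 weeks. These few calls among 16 measured genes are thus not read as a result about the list. The median log2 TAC over sham of the list was 0.09 at 2 weeks and -0.09 at 8 weeks, and without the members it was 0.09 and -0.13 over 16 measured genes.

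Of the cytosolic enzymes, Aacs, which activates acetoacetate for lipid synthesis, was at 0.501 in sham and 0.661 in TAC at 2 weeks, and at 0.712 in sham and 0.945 in TAC at 8 weeks. Its TAC ratios of 0.40 and 0.41 on the log2 scale were within 1.5-fold and below the difference of 0.51 between the sham pools. Hmgcs1, the cytosolic synthase of the cholesterol pathway, was level at 0.08 and -0.01, and the thiolase Acat2 was at 0.26 and -0.29.

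The transporters differed in direction. Slc16a3 (MCT4), a transporter known for lactate export, was at 0.661 in sham and 0.873 in TAC at 2 weeks, and at 0.757 in sham and 1.46 in TAC at 8 weeks, where log2 TAC over sham was 0.95. Slc16a6, which carries ketone bodies out of hepatocytes, was at 4.33 and 5.15 at 2 weeks and at 4.88 and 7.58 at 8 weeks, a log2 ratio of 0.25 at 2 weeks and 0.63 at 8 weeks. Its second probe, which is dimmer, gave 0.69 and 0.76, past 1.5-fold at both times, so that the probes disagreed on the call at 2 weeks. Slc16a7 (MCT2) was at 2.84 in sham and 1.88 in TAC at 2 weeks, and at 2.16 and 1.73 at 8 weeks. The TAC pool was lower at both times, by -0.59 on the log2 scale at 2 weeks, barely past the limit, and by -0.31 at 8 weeks. With quantile normalization, normexp or the deposited table, Slc16a7 at 2 weeks was within the limit. Bsg, a chaperone that takes some monocarboxylate transporters to the membrane, was at -0.35 and -0.16. Its relative Emb, also a partner of such transporters, was dim, with ratios of 0.15 ± 0.26 (spot SD) and 0.25 ± 0.24. Slc16a8 (MCT3) was at -0.21 and -0.29, and its sham pools differed by -0.35.

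Of the regulators, 6 of 8 were measured and 0 were past 1.5-fold in TAC over sham at either time. Ppara, the nuclear receptor of the fasting response, was at -0.35 on the log2 scale at 2 weeks and -0.19 at 8 weeks, Esrra, the estrogen-related receptor alpha, at -0.23 and -0.22, and Sirt3, the mitochondrial deacetylase, at -0.02 and -0.09. Nr1h4, the bile acid receptor, was dim at levels of 0.117 to 0.143, and its ratios of 0.26 ± 0.26 (spot SD) and 0.20 ± 0.24 were within the error. Tfeb, a factor of lysosome genes, was at 0.10 and -0.35. Ppargc1a, the coactivator of mitochondrial genes, was at -0.12 and 0.31, and its level was 23.0 in sham and 21.2 in TAC at 2 weeks, and 15.3 in sham and 19.0 in TAC at 8 weeks. Its sham pools thus differed by -0.59, more than either TAC ratio.

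**Figure D3:**
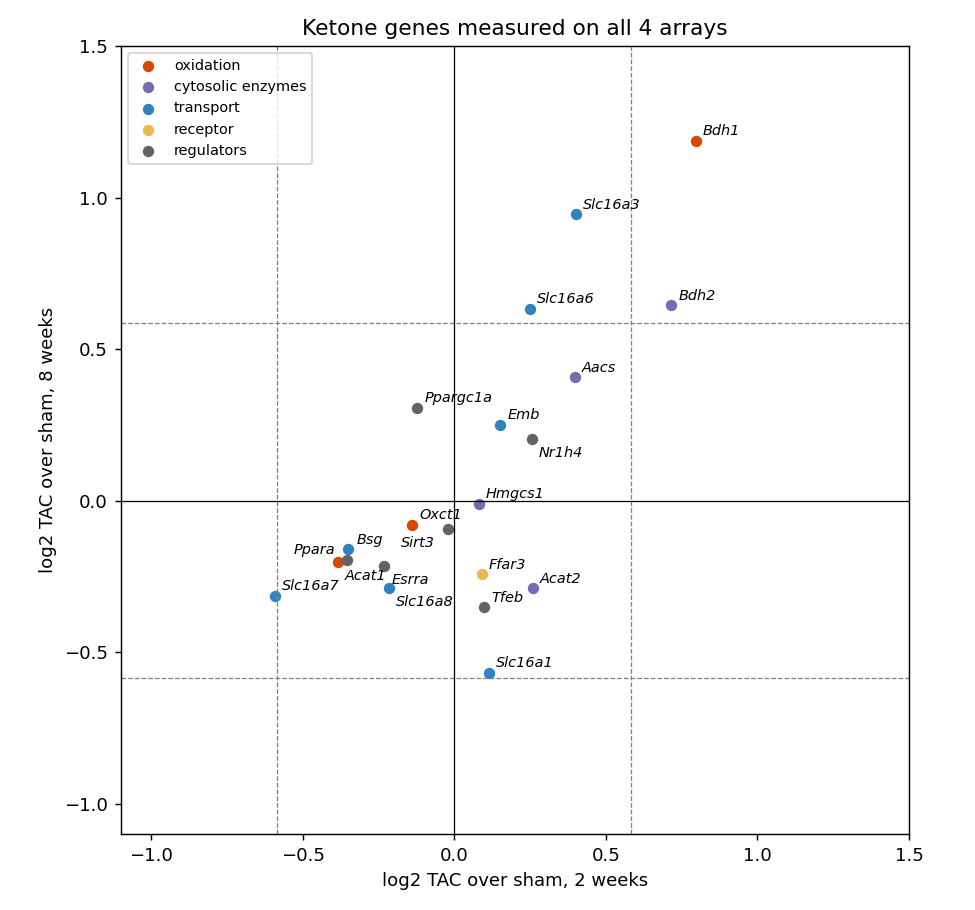
Each point is 1 of the 21 genes of the wider ketone list measured on all 4 arrays, with log2 TAC over sham at 2 weeks on the x axis and at 8 weeks on the y axis, colored by role. Dashed lines mark 1.5-fold. Bdh1 and Bdh2 lie past both upper lines, and Slc16a3 and Slc16a6, each by its brightest probe, past the line at 8 weeks only.

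Ketone oxidation was set beside the other fuel pathways of the heart muscle. Of 14 genes of fatty acid oxidation, 12 were below 0 on the log2 scale at 2 weeks and 14 at 8 weeks, with medians of -0.35 and -0.38. Over all measured probes the median was -0.02 at 2 weeks, with quartiles of -0.16 and 0.14. At 8 weeks it was -0.04, with quartiles of -0.21 and 0.14. The share of all probes below 0 was not counted. Cardiomyocyte markers, given further below, had medians of -0.20 and -0.32. Cpt1b, which admits fatty acids to the mitochondria, was at -0.12 and -0.22, and Acadm, the medium-chain dehydrogenase, at -0.29 and -0.41. Hadha, of the trifunctional protein, was at -0.43 and -0.45. All 10 genes of the citric acid cycle were below 0 at both times, with medians of -0.25 and -0.27, Cs, citrate synthase, being at -0.34 and -0.32. Genes of glucose and lactate use had medians of -0.19 and -0.16, with the insulin-dependent transporter Slc2a4 at -0.30 and -0.33, the transporter Slc2a1 at -0.20 and 0.22 and the lactate dehydrogenases Ldhb at -0.31 and -0.34 and Ldha at -0.15 and -0.07. The signs of these medians held under each scaling tried, apart from glucose use at 8 weeks without normalization, at 0.01. Almost all of these genes were within 1.5-fold, and Acaa2, a thiolase of fatty acid oxidation named after its values were seen, was at the limit at 8 weeks with -0.59. Acat1 and Oxct1 were on the same side of 0 as these lists under the main scaling, whereas Bdh1 was not.

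**Figure D4:**
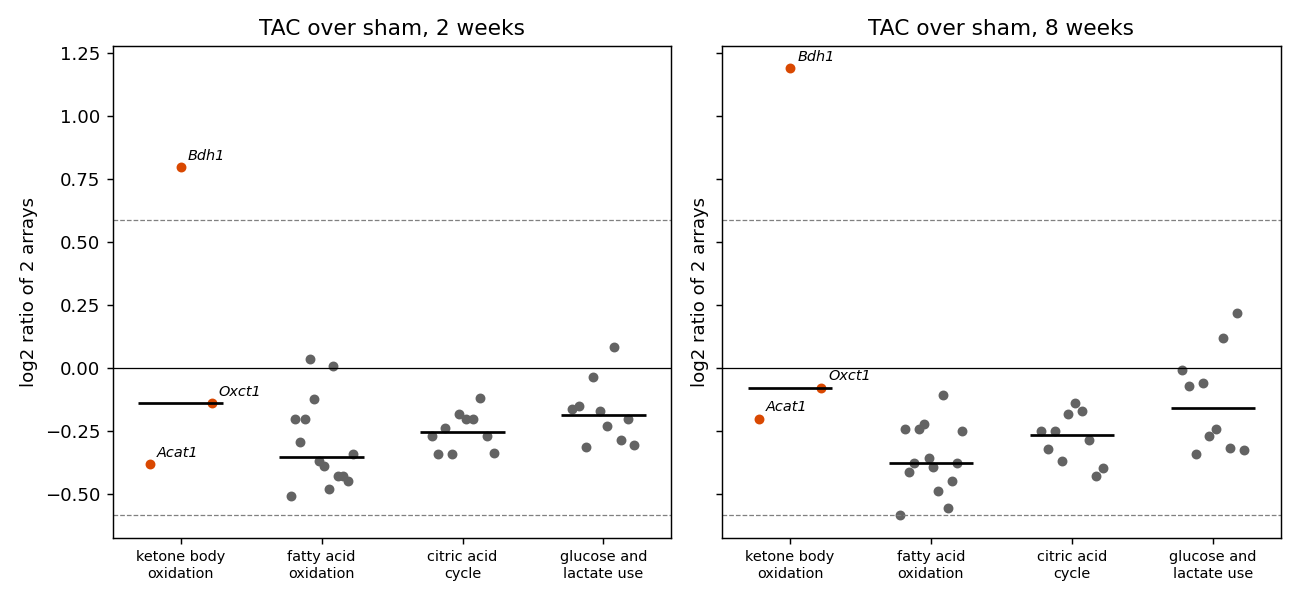
Points give log2 TAC over sham of each gene at 2 weeks (left) and 8 weeks (right) for the enzymes of ketone oxidation (orange, 3 genes) and for fatty acid oxidation (14 genes), the citric acid cycle (10 genes) and glucose and lactate use (10 genes). Black bars are medians and dashed lines mark 1.5-fold. Bdh1, at 0.80 and 1.19, stands above the points of the other lists, most of which lie below 0.

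The labels and the tissue were checked on other genes. The natriuretic peptide gene Nppa had a log2 TAC over sham of 1.84 at 2 weeks and 2.65 at 8 weeks, Nppb of 1.03 and 1.94, the fetal myosin gene Myh7 of 2.71 and 3.69 and skeletal actin Acta1 of 3.09 and 3.41. These are 4 of a list of 6 genes of the hypertrophic response. The other 2 were below 0 at each time and within 1.5-fold, Myh6 being at -0.19 at both times on its brightest probe. All 6 markers of cardiomyocytes were measured, with a summed level of 5696 in sham and 5179 in TAC at 2 weeks and of 5381 and 4712 at 8 weeks. The summed level of 6 fibroblast markers was 198 in sham and 271 in TAC at 2 weeks and 222 and 320 at 8 weeks, with 4 of 6 higher in TAC at each time. That of 4 macrophage markers was 30.2 and 37.3 at 2 weeks and 30.8 and 38.6 at 8 weeks. Each sum is set mostly by its brightest probes. The median log2 TAC over sham at 2 and 8 weeks was -0.20 and -0.32 for the cardiomyocyte markers. It was 0.93 and 0.87 for the fibroblast markers, 0.37 and 0.36 for the macrophage markers and 0.21 and -0.07 for the 4 endothelial markers. For 2 measured markers of red blood cells it was -0.28 and 0.11. Ryr2, a cardiomyocyte marker, was past the limit at 8 weeks with -0.63. The part of these shifts in the ratios of the member genes and of the fuel lists was not tested. In whole tissue, fewer cells of a type and less RNA per cell cannot be told apart. Between the sham pools Bdh1 differed 1.78-fold on its brightest probe. The summed markers in sham at 2 and 8 weeks were 198 and 222 for fibroblasts and 30.2 and 30.8 for macrophages. They were 52.8 and 45.7 for endothelial cells and 5696 and 5381 for cardiomyocytes. The median log2 ratios of sham at 8 weeks over sham at 2 weeks were -0.01, 0.09, 0.05 and -0.06 in that order. The part of these differences in Bdh1 was not tested. Of the markers of other tissues, 2 of 3 for brown fat (Ucp1 and Elovl3), 3 of 4 for white fat (Adipoq, Lep and Plin1) and 1 of 4 for hepatocytes (albumin, Alb) were not well above background on any array. The others of these lists were measured on all 4 arrays. Cidea of brown fat ranged from 35.4 to 47.6, Cfd of white fat from 0.112 to 0.220, Apoa2 of hepatocytes from 12.7 to 14.6 and Serpina1a from 0.211 to 0.260. Cfd had a log2 TAC over sham of -0.97 at 2 weeks and 0.18 at 8 weeks, and Ttr, the transthyretin gene of the hepatocyte list, had 0.59 and 1.16 at levels of 0.0726 to 0.162. The part of these genes in the ketone gene ratios was not tested.

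The genes closest to Bdh1 in their pattern over the 4 arrays were sought among 18811 probes, by the root mean square difference of log2 signals after each probe's mean was subtracted. Camkk1, a calcium/calmodulin-dependent kinase kinase, was nearest at 0.07, with levels of 0.246 in sham and 0.445 in TAC at 2 weeks and 0.420 in sham and 0.908 in TAC at 8 weeks. Smim24 followed at 0.14 and Ccl8, a chemokine, at 0.17. Those nearest to Bdh2 were Pxdc1, Prss23, a serine protease, and Map1a, a microtubule-associated protein, at 0.02 to 0.03. These distances are below the spot SD of a Bdh2 ratio, 0.14 at 2 weeks and 0.13 at 8 weeks, so they do not show an exact match. Several of these genes were dim, with levels of 0.0743 to 0.255 for Smim24, 0.0991 to 0.191 for Pxdc1 and 0.177 to 0.336 for Map1a. With 4 arrays such a likeness is a description of these pools.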

How the data were processed

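Total RNA of sham and TAC mouse hearts at 2 and 8 weeks was hybridized to 4 single-color Agilent arrays (design on mm9), 1 pool of mice each, on 1 slide in 1 scan. The authors deposited scanner output of Agilent Feature Extraction (10.7.3.1 in the file headers, 9.1 in the submitters' processing notes), whose processed signal is a background-corrected intensity of each spot that is not scaled between arrays. The deposited series table holds these intensities times 1 constant per array (3.52 to 4.35, with a column median of 97.2 to 106.3), and how the constant was chosen is not given in the sources used here.

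Outlier spots were left out, the log2 intensities of a probe's spots averaged, and each array scaled to the 75th percentile of its probes other than controls. Probes were named through transcript identifiers with RefSeq and GENCODE tables of GRCm38 (29359 matched, 26322 not). The brightest probe stood for a gene. Probes well above background on both arrays were compared, and 1.5-fold was the limit. Spot error came from the 399 probes printed in 10 spots, using only spots well above background on both arrays. This left 273 to 281 probes by comparison, with 45 to 48 in the brightest class, above a level of 10. The genes and lists were chosen with earlier results of these data known, and the rule for named genes took all members and the 3 nearest patterns, and allowed any gene of the ketone lists and the first genes of the other lists. Marker genes are named as a check, and other names are marked. Some genes of the ketone pathway are not reported here and were left out of the list. Alternatives were other scalings, background correction (normexp, offset 50, limma 3.58.1), the deposited table, outlier spots kept, other filters, 2-fold, the mean of a gene's probes and, added later, the mean of both sham arrays. Calling was tested on simulated data. Python 3.11.15, pandas 2.3.3, numpy 2.4.6 and R 4.3.3 were used. Depth has no meaning for arrays, and precision is limited by 1 array per group.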

Additional observations from a re-analysis of the deposited data

Results flagged for a closer look

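Of the 21 ketone genes measured on all 4 arrays, 6 had TAC ratios of opposite sign at 2 and 8 weeks under the main scaling. Which genes turned sign depended on the scaling. Oxct1, not among the 6, was at -0.18 and 0.0087 with arrays scaled to their medians. With 1 array per group the difference was not tested, and the share of all probes that turned sign was not counted. Small ratios were common, as the median absolute log2 TAC over sham of all measured probes was 0.15 at 2 weeks and 0.18 at 8 weeks. Slc16a1 had a log2 TAC over sham of 0.11 ± 0.14 (spot SD) at 2 weeks and -0.57 ± 0.13 at 8 weeks, a change of -0.68. Acat2 changed by -0.55 (0.26 to -0.29), Tfeb, a factor of lysosome genes, by -0.45 (0.10 to -0.35), and Ffar3, a receptor of short-chain acids, by -0.33 (0.09 to -0.24). The ratios of Slc16a1 and Ffar3 at 2 weeks were within their spot SD of 0.14. Ppargc1a changed by 0.43 (-0.12 to 0.31), while its sham pools differed by -0.59 and its TAC pools by -0.16 from 2 to 8 weeks. Hmgcs1 changed by -0.0915 (0.08 to -0.01), within its spot error.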

How the results depend on the processing

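No paired analysis was possible because each condition has 1 array and the labels carry no replicate numbers. No array could be left out for the same reason. Bdh1 was higher in TAC at both times under every scaling and background correction tried, and its sham difference kept its direction. Outlier spots kept, the percentile over spots and the mean over a gene's probes moved none of the values by more than their error or counts by more than 1.5 times.

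Several member ratios moved by more than the spot SD. With arrays scaled to their medians, log2 TAC over sham at 8 weeks was 1.28 for Bdh1, 0.0087 for Oxct1 and -0.11 for Acat1, and the ratio at 8 weeks minus that at 2 weeks was 0.52, 0.19 and 0.31. Without normalization the ratios at 8 weeks were 1.36 for Bdh1, 0.089 for Oxct1, -0.034 for Acat1, 0.81 for Bdh2 and -0.40 for Slc16a1, the changes from 2 weeks were 0.56, 0.23 and 0.35 for Bdh1, Oxct1 and Acat1, the differences between the sham pools were 0.94, 0.22 and 0.11 for the same genes, and the median of the ketone list at 8 weeks was 0.074. That setting shifts the median of all probes by 0.17 at 8 weeks. Quantile normalization gave Oxct1 -0.073 at 2 weeks and 0.011 at 8 weeks. Normexp gave, at 8 weeks, -0.018 for Oxct1, -0.14 for Acat1, 0.37 for Bdh2 and -0.41 for Slc16a1, and for Bdh2 0.33 at 2 weeks and 0.043 between the sham pools. Against the mean of both sham arrays, chosen after seeing the data, the ratios at 2 and 8 weeks were 0.38 and 1.61 for Bdh1, -0.20 and -0.018 for Oxct1 and -0.055 and -0.40 for Slc16a1.

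Counts moved more. At 2-fold, 0 member probes were higher at 2 weeks, the ketone list had 0 higher and 0 lower at 2 weeks and 1 higher at 8 weeks, and all probes had 230 higher and 193 lower at 2 weeks and 431 and 305 at 8 weeks, beside 1085, 937, 1366 and 1474 at 1.5-fold. Normexp left 1 ketone gene higher and 0 lower at 2 weeks, with 281 and 253 probes at 2 weeks and 667 and 333 at 8 weeks. Against the mean of both sham arrays, 1 member probe and 1 ketone gene, both Bdh2, were higher and 0 lower at 2 weeks. Quantile normalization left 0 ketone genes lower at 2 weeks, as did the deposited table, which gave 1 lower and 1 member probe lower at 8 weeks, both Slc16a1. The wider filter gave 3370 and 2511 probes at 2 weeks, 2833 and 4160 at 8 weeks and 1 ketone gene lower at 8 weeks. No filter gave 5313 and 3735, 4056 and 6455, 4 ketone genes lower at 8 weeks and a ketone median of -0.087 at 2 weeks. Without normalization, 2444 probes were higher and 738 lower at 8 weeks. Apart from these constructions the causes were not tested.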

Other observations

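Between the sham pools, 1.74% of all measured probes were past 1.5-fold higher at 8 weeks and 1.81% lower. Of 34 genes of fatty acid oxidation, the citric acid cycle and glucose use, 1 was past 1.5-fold between the sham pools. This was Pdk4, the kinase that switches off pyruvate dehydrogenase in fasting, which was named after its values were seen. Its level was 107 in sham and 114 in TAC at 2 weeks, and 33.6 in sham and 36.5 in TAC at 8 weeks. Both pools at 2 weeks were above both at 8 weeks, with a log2 ratio of -1.67 between the sham pools and of 0.08 and 0.12 for TAC over sham. Among the ketone genes, Ppargc1a, at -0.59, differed between the sham pools in the same direction as Pdk4, and Bdh1, at 0.84, in the other. The 4 atrial markers did not share an order. Myl7 and Sln, each dim and not well above background on every array, and Myl4 were highest in sham at 8 weeks, at 0.170, 0.120 and 3.85, and lowest in TAC at 8 weeks, at 0.0303, 0.0354 and 2.69, whereas Nr2f2 was lowest in sham at 8 weeks, at 0.964, and highest in TAC at 2 weeks, at 1.40.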
